A study of Mus musculus with 282 samples.

Results

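Pmaip1, which encodes the BH3-only protein NOXA, was measured together with p53, p53 target genes and members of the BCL2 family in basal prostate cells. The 10 genes were listed by name and are Pmaip1, Bbc3, Bax, Bcl2, Bcl2l1, Mcl1, Cdkn1a, Mdm2, Trp53 and Apaf1. All 10 were found by their Ensembl identifiers among the 48440 gene rows of each count table, and all 10 passed the filter on low counts that left 14713 genes for testing.

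The p53 protein, encoded by Trp53, is held low by the ubiquitin ligase MDM2 and, once stabilised by DNA damage or other stress, activates Mdm2 itself, the cell cycle inhibitor gene Cdkn1a and genes of mitochondrial apoptosis. BH3-only proteins such as NOXA (Pmaip1) and PUMA (Bbc3) each bind some or all of the survival proteins, among them BCL2, BCL-XL (Bcl2l1) and MCL1. They so relieve the restraint on pore formers such as BAX, after which released cytochrome c assembles APAF1 into the apoptosome. NOXA binds MCL1 preferentially, and its gene is also induced by routes that do not need p53. In skin and prostate, the basal layer depends on the p53 relative p63 (Trp63).

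The cells came from prostates of male POET3 mice, a transgenic line that expresses ovalbumin in the prostate and serves as a model of prostatitis. Inflamed and naive prostates both came from this line, so the naive cells carry the transgene as well, and the sources used here do not give how inflammation was induced, the age of the mice or their number. After collagenase and trypsin digestion the cells were sorted with antibodies to CD45, CD31, Sca-1 and CD49f to enrich basal prostate stem cells. Each library is the polyadenylated RNA of 1 cell, captured on a Fluidigm C1 instrument and amplified without molecular identifiers, so that counts are of reads and not of molecules. There were 85 inflamed cells in batch 2 and 78 in batch 3, against 55 naive cells in batch 2 and 64 in batch 3.

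Cells with at least 1000 detected genes and 50000 counts were kept, which left 80 and 76 inflamed cells and 53 and 59 naive cells in batches 2 and 3. Their counts were added up within each condition and batch, and the 4 sums held between 50105953 and 79225330 counts, with median depths per cell of 840863 to 1001870. The label of basal cells was checked against basal markers, all 10 of which had reads in every sum (13899 and 13938 CPM, counts per 1000000 after TMM scaling, summed over the list in inflamed batches 2 and 3, against 8277 and 10111 CPM in naive ones). Of 10 luminal markers, 9 and 8 had reads in the inflamed sums, against 9 and 10 in the naive sums, and the list added up to 2514 and 2156 CPM in the inflamed sums, against 1173 and 1958 CPM in the naive sums. Of 12 leukocyte markers, 10 and 10 had no read in the inflamed sums, against 11 and 11 in the naive sums, and Ptprc, which encodes CD45, had none in any kept cell. The median share of a cell's counts in mitochondrially encoded genes was 3.73% and 2.82% in inflamed cells and 2.67% and 2.26% in naive cells. The 25 genes of an immediate early and dissociation stress list added up to 9229 and 10758 CPM in the inflamed sums, against 29886 and 39120 CPM in the naive sums. The part of these differences in the results below was not tested.

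Pmaip1 stood out among the 10 genes. It averaged 121.8 ± 74.8 CPM in the inflamed sums and 0.0914 ± 0.0792 CPM in the naive sums (SD, n = 2 each), while none of the other 9 genes had a log2 fold change beyond that of Bbc3, at 2.60. Bbc3, Bcl2l1, Mdm2 and Apaf1 had higher values in inflamed cells in both batches, Bax, Cdkn1a and Trp53 had lower values in both, and Bcl2 and Mcl1 were mixed. The 5 genes higher in both batches, Pmaip1 included, are to be read against 30.9% of all genes tested, and the 3 lower in both against 28.3%. Both inflamed sums lay above both naive sums for 3 genes (Pmaip1, Bbc3 and Apaf1; 24.3% of all genes) and below them for 2 (Cdkn1a and Trp53; 21.3%). The median log2 fold change of the 10 genes was 0.12, beside 0.10 over all genes tested.

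With condition and batch in edgeR's quasi-likelihood test, no gene of the 10 passed a Benjamini-Hochberg adjusted p of 0.05 in either direction, and neither did any of all genes tested (0% higher, 0% lower). At an unadjusted p under 0.05, 1 of the 10 was higher (Pmaip1; 5.04% of all genes) and 0 were lower (3.23%). DESeq2 with the same terms called Pmaip1 alone among the 10, as higher, and called 7.13% of the genes to which it gave an adjusted p as higher and 4.11% as lower. The test rests on how far the difference between conditions varied between the 2 batches, with 1 residual degree of freedom, and since the labels name no animals this spread may be technical. In such sums, fewer cells that express a gene and less RNA per cell cannot be told apart.

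**Figure D1:**
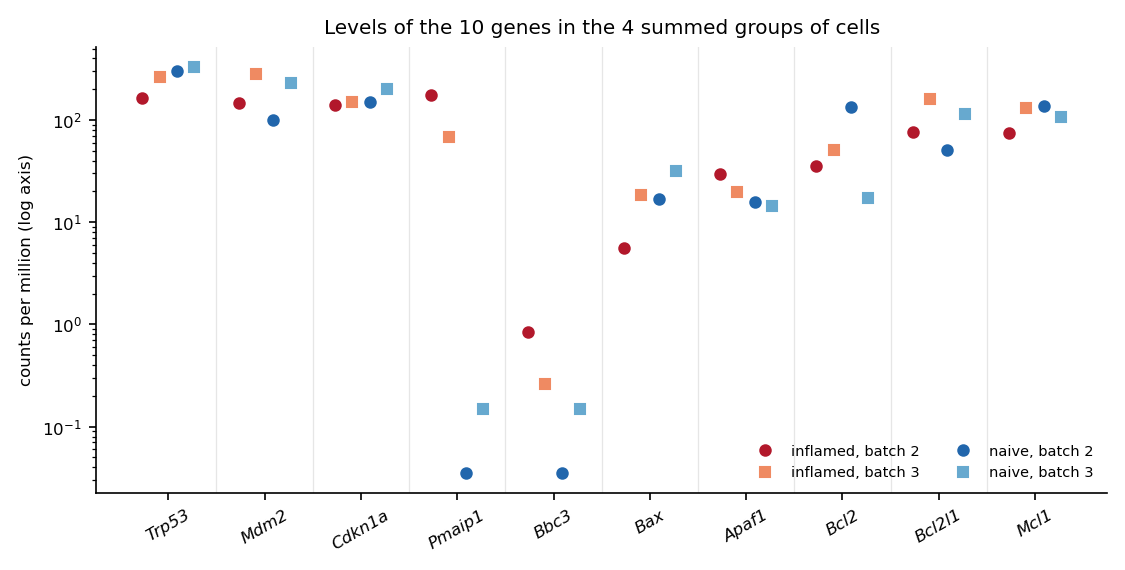
Level in CPM (log axis) of the 10 genes in the 4 sums, with inflamed batches 2 and 3 in red and orange and naive batches 2 and 3 in dark and light blue. Pmaip1 lies at 174.7 and 68.95 CPM in the inflamed sums and at 0.0354 and 0.147 CPM in the naive sums, and most other genes have inflamed and naive points close together.

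Pmaip1 (ENSMUSG00000024521) lies on chromosome 18 of GRCm38, from base 66458533 to 66465565 on the plus strand, and its annotated exons overlap no other gene. It had 13770 and 5243 counts in the inflamed sums of batches 2 and 3, or 174.7 and 68.95 CPM, against 2 and 7 counts in the naive sums, or 0.0354 and 0.147 CPM. The naive sums thus held almost no reads of the gene in either batch, and the groups were far apart. The ratio of the CPM values was 4929 in batch 2 (95% counting interval 1364 to 40701, with 2 naive counts) and 468 in batch 3 (227 to 1164). Such counting intervals treat every read as an independent draw. They leave out differences between cells and the copying of molecules in amplification, and so are too narrow. The fitted log2 fold change was 10.34 ± 1.41 (SE), with an unadjusted p of 0.00259 and a Benjamini-Hochberg adjusted p of 0.568 in edgeR, and an adjusted p of 1.94e-25 in DESeq2. Of the 14713 genes tested, 1.2% had a log2 fold change at least as high and 57 genes an unadjusted p at least as low, and 0.568 was the lowest adjusted p of any gene in edgeR.

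Pmaip1 was detected in many inflamed cells. At least 1 read was found in 57.5% of inflamed cells of batch 2 (46 of 80, exact Clopper-Pearson 95% interval 45.9 to 68.5%) and in 30.3% of batch 3 (23 of 76, 20.2 to 41.9%), against 3.77% of naive cells of batch 2 (2 of 53, 0.46 to 12.98%) and 6.78% of batch 3 (4 of 59, 1.88 to 16.5%). As counted, no interval of an inflamed group touched one of a naive group. These intervals cover counting error only, and the cells of a group share their source. With cells thinned to 500000 counts, which left out 10 and 4 shallower inflamed cells and 7 and 4 naive ones, the shares were 45.7% (32 of 70 cells) and 26.4% (19 of 72, interval 16.7 to 38.1%) in inflamed cells, against 2.17% (1 of 46) and 7.27% (4 of 55, interval 2.02 to 17.6%) in naive cells. In batch 3 the intervals of the thinned shares overlapped slightly.

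With at least 5 reads required, 27 inflamed cells of batch 2 (33.8%) and 13 of batch 3 (17.1%) had Pmaip1, and 0 of 53 and 0 of 59 naive cells did, which allows naive shares of up to 5.66% and 5.08% (3 cells of the total; the exact 95% upper limits are 6.72% and 6.06%). The highest naive cells held 1 and 4 reads of the gene, in contrast to 1423 and 1925 in the highest inflamed cells. The inflamed level also differed between cells and batches. In batch 2 the highest cell supplied 10.3% of the reads and in batch 3 it supplied 36.7%, and 6 and 2 cells were enough for 50% of the reads in the 2 inflamed groups. With the highest cell left out of every sum, the log2 fold change was 10.99.

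**Figure D2:**
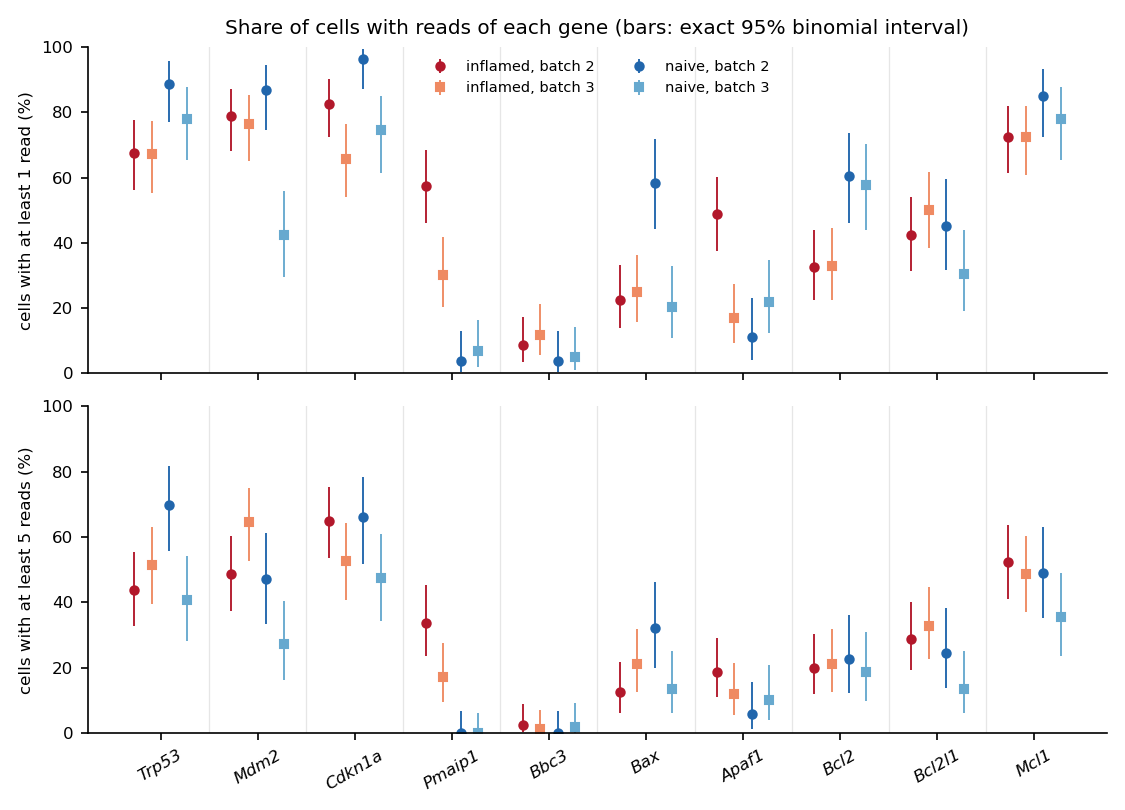
Share of kept cells with at least 1 read (top) and at least 5 reads (bottom) of each gene, in percent, with exact 95% binomial intervals as bars and the 4 groups coloured as inflamed batch 2 and 3 (red, orange) and naive batch 2 and 3 (dark and light blue). For Pmaip1 at 5 reads the inflamed shares are 33.8% and 17.1% and both naive shares are 0. For Mdm2 at 5 reads they are 48.8% and 64.5% in inflamed cells, against 47.2% and 27.1% in naive cells.

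Trp53, which encodes p53 itself (chromosome 11, 69580359 to 69591873, plus strand), was abundant in every sum. Its level was 165.4 and 263 CPM in the inflamed sums of batches 2 and 3, against 304 and 328 CPM in the naive sums. The inflamed values lay below the naive ones in both batches, and the groups did not overlap, although the difference did not pass the test (log2 fold change -0.60 ± 0.34 SE, edgeR adjusted p = 0.705). Reads of Trp53 were found in 67.5% and 67.1% of inflamed cells, against 88.7% and 77.97% of naive cells. At 5 reads the shares were 43.8% and 51.3% in inflamed cells, against 69.8% and 40.7% in naive cells, so that the order turned in batch 3. Its count is uncertain in part, since the processed pseudogene Trp53-ps held 1485 counts over all cells and the sources used here do not give the treatment of reads that match more than 1 place.

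Mdm2 (chromosome 10, 117688875 to 117710758, minus strand) encodes the ligase that marks p53 for degradation and is itself a p53 target. The sums gave 146.3 and 285 CPM in inflamed cells, against 99.3 and 229 CPM in naive cells. Within each batch the inflamed sum was higher, yet the batches differed more than the conditions did, so that the groups overlapped (log2 fold change 0.44 ± 0.34, edgeR adjusted p = 0.814). Its highest naive cell of batch 3 supplied 40.3% of that sum's reads, and with the highest cell left out of every sum the log2 fold change was 0.87. The share of cells with a read was 78.8% and 76.3% in inflamed cells, against 86.8% and 42.4% in naive cells. At 5 reads the shares were 48.8% and 64.5% in inflamed cells, against 47.2% and 27.1% in naive cells.

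Cdkn1a (chromosome 17, 29090976 to 29100727, plus strand) encodes p21, the inhibitor of cyclin-dependent kinases that p53 uses to halt the cell cycle. It stood at 139.1 and 150 CPM in inflamed sums and at 150.6 and 203 CPM in naive sums. All 4 values lay close together, with the inflamed ones slightly lower and no call from the test (log2 fold change -0.28 ± 0.36, edgeR adjusted p = 0.924). Most cells had the transcript, with reads in 82.5% and 65.8% of inflamed cells and in 96.2% and 74.6% of naive cells. At 5 reads the shares were 65% and 52.6% in inflamed cells, against 66.04% and 47.5% in naive cells, so that here too the order turned in batch 3. The 3 genes at the core of the p53 circuit therefore showed small differences in summed level beside that of Pmaip1.

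Promoter windows were read from RefSeq (GRCm38.p6, 250 bases before to 50 bases after each annotated start), and 9 of the 10 genes had 14 windows among them. The gene without a window was Pmaip1, so its promoter was not searched. They were searched for the p53 half-site consensus of 10 letters, which equals its own reverse complement, so that both strands were covered. A half-site was found in 1 window each of Cdkn1a, Mdm2, Bax and Trp53, and in 8.36% of all 32851 windows. A pair of half-sites with a spacer of at most 13 bases, the form of a full p53 site, was found only in the upstream window of Cdkn1a among the 14, and in 0.0731% of all windows. These stretches are shown because they are the places where the members' promoters carry the letters of the factor, and a match is a description, not a bound site. The sequences run 5′ to 3′ on the gene's strand with exact half-site matches in capitals. In the Cdkn1a stretch, the 10 bases right after the match nearer the start differ from the consensus in 1 letter. They are therefore not in capitals. The Cdkn1a stretch is chr17:29090729-29090968 on the plus strand, with half-sites whose first bases lie 73 and 51 bases before the start. The Mdm2 stretch is chr10:117710920-117710959 on the minus strand, the Bax stretch chr7:45467075-45467114 on the minus strand and the Trp53 stretch chr11:69580269-69580308 on the plus strand.
Cdkn1a: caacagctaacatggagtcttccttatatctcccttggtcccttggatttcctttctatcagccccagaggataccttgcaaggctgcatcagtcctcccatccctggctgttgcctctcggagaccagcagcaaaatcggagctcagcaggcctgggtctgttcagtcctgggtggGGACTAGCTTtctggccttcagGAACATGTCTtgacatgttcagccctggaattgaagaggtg
Mdm2: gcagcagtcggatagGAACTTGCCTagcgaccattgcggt
Trp53: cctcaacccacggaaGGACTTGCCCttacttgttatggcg
Bax: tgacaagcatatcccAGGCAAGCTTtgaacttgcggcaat

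Of the 4 genes with a half-site in these windows, Mdm2 was higher in inflamed cells in both batches, and Cdkn1a, Bax and Trp53 were lower in both. None of the 4 passed edgeR's test.

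Bbc3 (chromosome 7, 16308393 to 16318205, plus strand) encodes PUMA, the other BH3-only protein among the 10. It was close to absent, with 66 and 20 counts (0.837 and 0.263 CPM) in the inflamed sums and 2 and 7 counts (0.0354 and 0.147 CPM) in the naive sums. Of the 66 counts in inflamed batch 2, 78.8% came from 1 cell. The ratio of the CPM values was 23.6 in batch 2 (95% counting interval 6.29 to 199, with 2 naive counts) and 1.78 in batch 3 (0.725 to 4.99). The interval of batch 3 includes equality. That of batch 2 cannot exclude it, since it treats reads as independent and most of them came from 1 cell. The log2 fold change was 2.60 ± 1.98 (edgeR adjusted p = 0.802), and DESeq2 gave no adjusted p. Reads were found in 8.75% and 11.8% of inflamed cells, against 3.77% and 5.08% of naive cells.

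Bax (chromosome 7, 45461697 to 45466898, minus strand) encodes a pore-forming effector of the family. The inflamed sums had 5.58 and 18.6 CPM, and the naive sums had 16.9 and 31.6 CPM. Both batches had the lower value in inflamed cells, although batch 3 of the inflamed cells exceeded batch 2 of the naive cells, so the groups overlapped (log2 fold change -1.18 ± 1.06, edgeR adjusted p = 0.850). The share of cells with a read was 22.5% and 25% in inflamed cells, against 58.5% and 20.3% in naive cells. The share was thus lower in inflamed cells in batch 2 and not in batch 3.

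Apaf1 (chromosome 10, 90989311 to 91082770, minus strand), the scaffold of the apoptosome, had 29.7 and 19.6 CPM in inflamed sums, against 15.7 and 14.4 CPM in naive sums. The inflamed values were the higher ones and the groups did not overlap, but few cells carried the reads. The highest cell supplied 37.2% and 44.03% of the inflamed sums and 57.9% and 40.1% of the naive sums. The log2 fold change was 0.68 ± 0.98 (edgeR adjusted p = 0.936), and in sums of cells thinned to 500000 counts, without the 25 shallower cells, it was -0.35 (adjusted p = 1).

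Among the survival genes, Mcl1 (chromosome 3, 95658788 to 95663176, plus strand) encodes the short-lived protein that NOXA binds. Its level was 74.3 and 131.1 CPM in the inflamed sums, against 136.1 and 107.1 CPM in the naive sums. The inflamed sum was lower in batch 2 (log2 fold change within the batch -0.87) and higher in batch 3 (0.29), and the fit over both gave -0.29 ± 0.51 (edgeR adjusted p = 0.957). Reads were found in 72.5% and 72.4% of inflamed cells and in 84.9% and 77.97% of naive cells, the most widely found of the 3 survival genes in each of the 4 groups. With at least 5 reads required the order turned in both batches, with 52.5% and 48.7% of inflamed cells, against 49.1% and 35.6% of naive cells.

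Bcl2l1 (chromosome 2, 152780668 to 152831728, minus strand), which encodes BCL-XL, had 76.9 and 161.4 CPM in the inflamed sums and 51.3 and 115.2 CPM in the naive sums. It was higher in inflamed cells by a similar amount in both batches (0.58 and 0.49 on the log2 scale). The groups nevertheless overlapped, because batch 3 was the higher batch in both conditions, and the log2 fold change of 0.54 ± 0.41 had an edgeR adjusted p of 0.807. Reads were found in 42.5% and 50% of inflamed cells, against 45.3% and 30.5% of naive cells. With at least 5 reads required, 28.8% and 32.9% of inflamed cells had the gene, against 24.5% and 13.6% of naive cells.

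Bcl2 (chromosome 1, 106538178 to 106714274, minus strand), the founding survival gene, had 35.2 and 51.04 CPM in the inflamed sums, against 134.7 and 17.3 CPM in the naive sums. The naive batches differed more from each other than from the inflamed ones. The inflamed value was lower in batch 2 (-1.94 on the log2 scale) and higher in batch 3 (1.56), and the fit gave -0.19 ± 1.24 (edgeR adjusted p = 1). In naive batch 2, 1 cell supplied 38.02% of the reads. Cells with at least 1 read made up 32.5% and 32.9% of inflamed cells, against 60.4% and 57.6% of naive cells, but with 5 reads required the shares were 20.0% and 21.1% in inflamed cells and 22.6% and 18.6% in naive cells. The difference in detection therefore lay in cells with 1 to 4 reads of Bcl2.

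**Figure D3:**
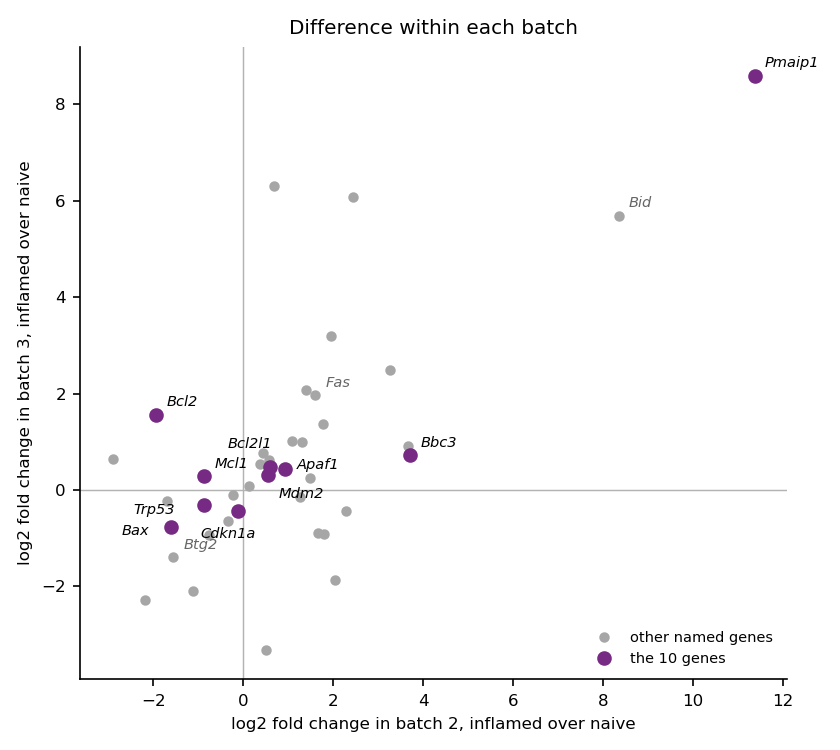
Log2 fold change, inflamed over naive, within batch 2 (x axis) and within batch 3 (y axis) for the 10 genes (purple) and the other named genes (grey), taken from log CPM (prior count 2). Pmaip1 lies at 11.36 and 8.60, Bcl2 and Mcl1 lie left of 0 and above it, and the remaining 7 of the 10 genes have the same sign in both batches.

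Levels were set side by side between genes per kilobase of annotated exon. In the inflamed sums Pmaip1 stood at 63.9 and 25.2 CPM per kilobase, and in the naive sums at 0.0130 and 0.0540. In inflamed batch 2 this was above each of the other 9 genes, of which the highest was Trp53 at 40.9 CPM per kilobase. In inflamed batch 3 Trp53 (65.01), Mdm2 (55.98), Cdkn1a (42.3), Mcl1 (38.4) and Bcl2l1 (35.2) were above Pmaip1. In both naive sums Trp53 was the highest of the 10 genes (75.1 and 81.2 CPM per kilobase) and Pmaip1 the lowest.

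The 4 pro-apoptotic genes (Pmaip1, Bbc3, Bax and Apaf1) summed to 71.2 and 39.3 CPM per kilobase in the inflamed sums, against 12.5 and 21.7 in the naive sums. The 3 survival genes (Bcl2, Bcl2l1 and Mcl1) summed to 42.3 and 79.1 CPM per kilobase in inflamed cells, against 65.7 and 58.4 in naive cells. Pro-apoptotic over survival level was thus 1.68 and 0.497 in inflamed cells and 0.190 and 0.373 in naive cells, higher in inflamed cells in both batches. Without Pmaip1 the ratio was 0.171 and 0.178 in inflamed cells, against 0.190 and 0.372 in naive cells, lower in both batches. The gap in batch 2 was small, and there 1 cell each supplied 35.5% of inflamed Bax reads and 38.02% of naive Bcl2 reads. The ratio without Pmaip1 was not retaken without such cells. Only in batch 2 did the pro-apoptotic level exceed the survival level, and without Pmaip1 it did not. The ratio was also taken without the Pmaip1 reads of the cell highest in Pmaip1 in each group, with that cell's reads of the other genes kept. It was then 1.52 and 0.380 in inflamed cells and 0.190 and 0.372 in naive cells. The difference in batch 3 thus rested largely on the Pmaip1 reads of 1 cell. No test was run on these ratios.

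**Figure D4:**
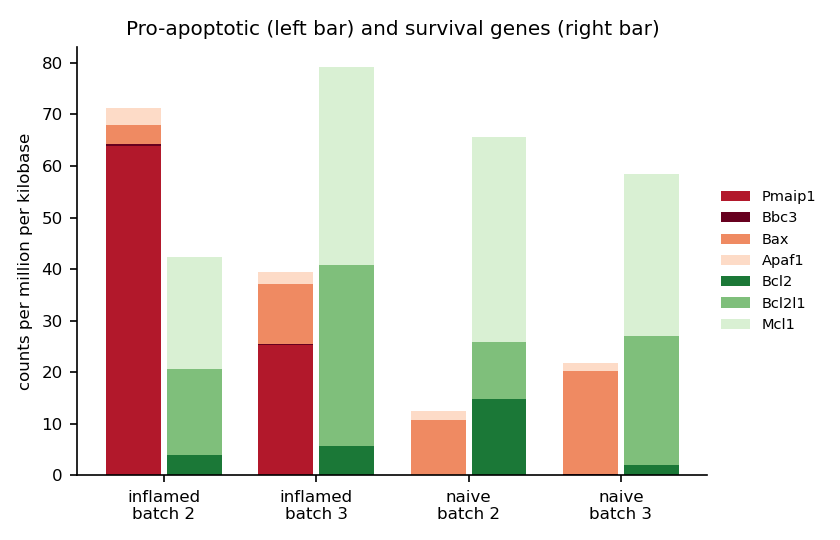
Stacked levels in CPM per kilobase of exon of the pro-apoptotic genes (left bar of each pair, red shades) and the survival genes (right bar, green shades) in the inflamed sums of batches 2 and 3 and the naive sums of batches 2 and 3. Pmaip1 makes up 63.9 of 71.2 and 25.2 of 39.3 CPM per kilobase of the pro-apoptotic bar in the inflamed sums and nearly none of it in the naive sums.

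Cell by cell, the 10 genes differed in how widely they were found. At least 1 read was found in 3.77% to 11.8% of the cells of a group for Bbc3. For Cdkn1a the range was 65.8% to 96.2%. A cell had at least 5 reads of a median of 3 of the 10 genes in both inflamed groups, against 3 and 2 in the naive groups. Of the 27 inflamed cells of batch 2 with at least 5 Pmaip1 reads, 17 (62.96%) also had at least 5 reads of a survival gene, beside 68.8% of all 80 cells. In inflamed batch 3 this was 6 of 13 (46.2%), beside 71.1% of all 76 cells. Mcl1 in particular was found with 13 of the 27 and with 4 of the 13 Pmaip1 cells, which were 30.95% and 10.8% of the Mcl1 cells. These counts are small, and detection of any gene in a cell also depends on its depth.

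Across inflamed cells the rank correlation of Pmaip1 with each other member was weak. It is given as a description over 80 and 76 cells that share their source and differ in depth. Spearman's rho was 0.06 and 0.04 with Trp53, 0.06 and 0.01 with Mdm2, -0.16 and 0.11 with Cdkn1a and -0.03 and -0.11 with Mcl1 in batches 2 and 3. Of the 9 other members the one furthest from 0 was Apaf1 in batch 2, at -0.19 (-0.02 in batch 3).

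**Figure D5:**
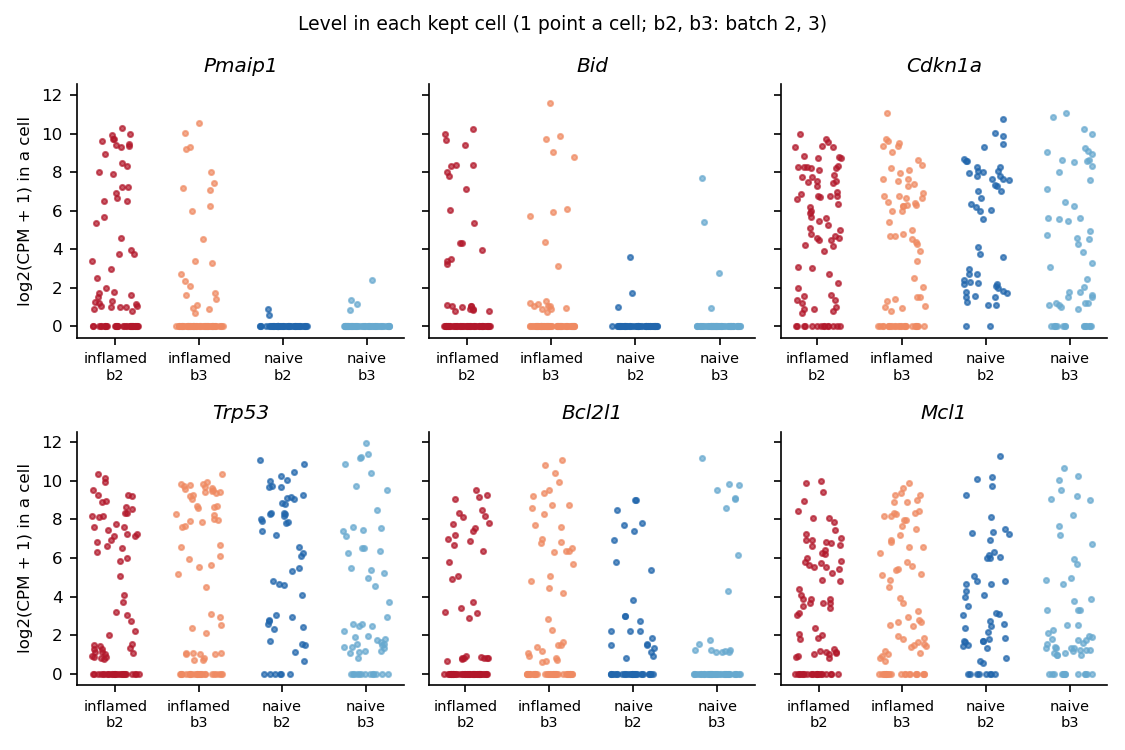
Level of 6 genes in each kept cell as log2(CPM + 1), 1 point a cell, for inflamed batch 2 and 3 (red, orange) and naive batch 2 and 3 (dark and light blue). Pmaip1 reaches high levels in a subset of inflamed cells and stays near 0 in naive cells, where the highest cells hold 1 and 4 reads, while Cdkn1a, Trp53, Bcl2l1 and Mcl1 spread over the same range in all 4 groups.

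Bid, a BH3-only gene outside the 10 whose product links death receptors to mitochondria, had the difference nearest in kind. It had 84.7 and 135.8 CPM in the inflamed sums, against 0.230 and 2.59 CPM in the naive sums. The groups were well apart, with 35% and 26.3% of inflamed cells holding a read, against 5.66% and 6.78% of naive cells (log2 fold change 7.06 ± 1.21; adjusted p = 0.568 in edgeR and 1.09e-14 in DESeq2). In inflamed batch 3, 64.3% of its reads came from 1 cell, and its exons overlap those of Bcl2l13 on the other strand over 628 bases, which counts without strand cannot separate.

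Few cells had at least 5 reads of both Pmaip1 and Bid. Of the 27 Pmaip1 cells and 16 Bid cells with at least 5 reads in inflamed batch 2, 1 cell had both, and of 13 and 10 in batch 3 the count was 0. Bid cells were 20% of all 80 cells in batch 2 and 13.2% of all 76 in batch 3, so these counts are small. Cells with at least 1 read of both genes were not counted. The rank correlation of Pmaip1 and Bid across inflamed cells was -0.23 and -0.19, and by mean correlation over the 4 groups Bid had rank 6929 of 6957 genes. That mean includes the naive groups, where only 2 and 4 cells had a Pmaip1 read and 3 and 4 a Bid read. No test was run on this pattern over cells.

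The other genes of the pathway came from lists of known members of each group. Of 27 p53 target genes beside the members, 26 were tested, of which 6 were higher and 7 lower in inflamed cells in both batches, no more than the 30.9% and 28.3% of all genes, with a median log2 fold change of -0.20. None passed edgeR's adjusted threshold, and at an unadjusted p under 0.05 there were 3 higher and 1 lower (5.04% and 3.23% of all genes). Fas, which encodes a death receptor, had 125.04 and 333 CPM in the inflamed sums, against 41.5 and 85.3 CPM in the naive sums, with no overlap (log2 fold change 1.78 ± 0.38; adjusted p = 0.568 in edgeR and 0.0182 in DESeq2). Plk2, which encodes a polo-like kinase, had 1678 and 1874 CPM, against 678 and 939 CPM (1.15 ± 0.26, DESeq2 adjusted p = 0.0909). Trp53inp1, a stress-induced partner of p53, had 327 and 531 CPM, against 154.9 and 264 CPM (1.04 ± 0.30, DESeq2 adjusted p = 0.188).

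Btg2, an antiproliferative target of p53 that is also an immediate early gene, was the lower one. It had 1333 and 2296 CPM in the inflamed sums, against 3938 and 6051 CPM in the naive sums (log2 fold change -1.48 ± 0.23; adjusted p = 0.568 in edgeR and 0.0131 in DESeq2). It lay below the naive range in both batches, as did the summed immediate early list given above, of whose 25 genes 21 were lower in both batches.

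The remaining named targets had smaller or mixed differences, and none had an unadjusted p under 0.05 in edgeR. Gadd45a, a growth arrest and DNA damage gene, had 137.01 and 221 CPM in inflamed sums, against 100.5 and 129.3 CPM in naive sums. Perp, a p53 and p63 target in desmosomes, had 742 and 706 CPM, against 933 and 1106 CPM. Ccng1 (cyclin G1) had 21.7 and 66.4 CPM, against 162.96 and 42.6 CPM, and Sesn2, a stress gene of the sestrin family, 38.8 and 4.10 CPM, against 27.4 and 41.4 CPM, so each of these changed order between batches. Tnfrsf10b, a TRAIL receptor, had 61.8 and 47.3 CPM, against 72.8 and 50.6 CPM.

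Among 13 regulators of p53 beside the members, 12 were tested, with 3 higher and 7 lower in both batches and a median log2 fold change of -0.71. These counts, and those of the BH3-only and death receptor lists, are to be read against the same 30.9% and 28.3% of all genes. Mdm4, the MDM2 relative that also restrains p53, had 114.98 and 169.3 CPM in inflamed sums, against 105.6 and 160 CPM in naive sums. Trp63 had 83.01 and 294 CPM, against 269 and 344 CPM (log2 fold change -0.96 ± 0.51, edgeR adjusted p = 0.685). The kinase genes Atr (8.55 and 15.6, against 38.95 and 76.4 CPM), Chek1 (29.7 and 49.7, against 50.1 and 94.7 CPM) and Hipk2 (13.6 and 7.97, against 29.5 and 34.1 CPM) had lower inflamed sums, but 94.04% of Atr reads in naive batch 3 and 95.2% of those of Hipk2 came from 1 cell each.

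In the rest of the BCL2 family few genes were well measured. Of 8 other BH3-only genes 6 were tested, with 3 higher and 1 lower in both batches and a median log2 fold change of 0.45. Bcl2l11, which encodes BIM, had 16.9 and 14.2 CPM in inflamed sums, against 4.84 and 26.7 CPM in naive sums, so its order changed between batches. Bnip3l had 51.5 and 46.3 CPM, against 40.0 and 31.7 CPM. Of the other effectors, Bak1 was too low to test (1 and 12 counts in inflamed sums, none in naive sums), and Bok had 21.02 and 31 CPM, against 13.1 and 0.358 CPM. Of 5 other survival genes, 4 had no read in any kept cell.

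Downstream of the mitochondria, 9 of the 15 apoptosome and caspase genes beside Apaf1 were higher in inflamed cells in both batches and 0 were lower (30.9% and 28.3% of all genes), with a median log2 fold change of 1.57. None passed edgeR's adjusted threshold. Birc3, which encodes the inhibitor of apoptosis cIAP2 and is a known NF-kB target, had 405 and 436 CPM in the inflamed sums, against 117.9 and 169.4 CPM in the naive sums (log2 fold change 1.57 ± 0.33; adjusted p = 0.568 in edgeR and 0.0241 in DESeq2). Its relative Birc2 had 198 and 208 CPM, against 70.2 and 175.3 CPM, and Xiap had 14.5 and 19.3 CPM, against 3.49 and 69.97 CPM. The list therefore holds inhibitors of caspases as well as caspases.

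The executioner gene Casp6 had 77.3 and 84.5 CPM in inflamed sums, against 29.5 and 19.9 CPM in naive sums (log2 fold change 1.74 ± 0.62; adjusted p = 0.568 in edgeR and 0.104 in DESeq2). The initiator of the apoptosome, Casp9, was low, at 3.15 and 0.263 CPM, against 0.301 and 0.0211 CPM. In the death receptor list, 5 of 12 tested genes were higher in both batches and 1 was lower, with a median log2 fold change of 0.97. Casp8, the initiator caspase that cleaves BID, had 23.6 and 39.9 CPM, against 6.08 and 4.36 CPM (2.58 ± 1.13; adjusted p = 0.615 in edgeR and 0.0938 in DESeq2), and its inhibitor Cflar had 163.5 and 91.1 CPM, against 51.5 and 168.5 CPM.

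Over all 7 pathway lists without the members, 71 of 81 genes were tested, 27 were higher and 15 lower in inflamed cells in both batches (30.9% and 28.3% of all genes), and the median log2 fold change was 0.42, beside 0.10 over all genes. At an unadjusted p under 0.05 in edgeR there were 6 higher and 2 lower (5.04% and 3.23% of all genes), and DESeq2 called 8 higher and 2 lower (7.13% and 4.11%). Beside the genes named above these included Endog, Chek2, Eda2r, Dram1, Birc5 and Tnfsf10, which were chosen after their values were seen and which had reads in 1.12% to 18.7% of kept cells.

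The genes whose pattern over cells was most like that of Pmaip1, by the mean Spearman correlation of log2(CPM + 1) over the 4 groups among 6957 genes with a read in at least 20% of kept cells, were Rffl, Gm44389, Ttc9, Spop and Adnp2. Their mean correlations were 0.23 to 0.27. In the naive groups these values rest on the 2 and 4 cells that had a Pmaip1 read. Within inflamed cells of batches 2 and 3 the correlation was 0.22 and -0.04 for Rffl and 0.07 and -0.05 for Ttc9. It was 0.19 and 0.24 for Gm44389, of which no kept cell had 5 reads, and 0.16 and 0.26 for Adnp2. Spop, which encodes a substrate adaptor of a ubiquitin ligase, was the most alike of the 5 within inflamed cells (0.36 and 0.31), with 341 and 274 CPM in inflamed sums and 142.5 and 304 CPM in naive sums.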

How the data were processed

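Per the labels' protocols, sorted prostate cells were captured 1 per chamber and sequenced as single-end reads. The authors deposited 1 table for each batch, which holds unnormalised read counts for every gene in every cell. TopHat2, HTSeq, R 3.4.1, Seurat 1.4 and GRCm38.p6 are named without roles per the submitters' processing notes. No strand information is given, so antisense overlaps cannot be separated. The 282 cells were grouped by the labels' condition and batch, 14 were left out (under 1000 genes or 50000 counts), and no cell had counts identical to another's. No doublet caller was run.

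The 4 sums over cells were fitted with edgeR 4.0.16 in R 4.3.3 (quasi-likelihood F test, TMM factors, filterByExpr, condition and batch, 1 residual and 2.66 prior degrees of freedom), with Benjamini-Hochberg adjustment over 14713 genes. Fold changes are inflamed over naive. CPM is scaled by TMM-corrected library sizes. DESeq2 1.42.0, other scalings, filters and left-out sums were alternatives. The label's batch pairs the sums, whose batch deviations had a correlation of -0.01 over 14713 genes. The fit was also run on counts simulated without a batch effect, as a check of the code only.

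The 10 genes and the gene lists were chosen with earlier results of these data known. Other named genes were 17 listed regulators, targets and family members (1 of which is not reported here), up to 3 genes a list with the largest mean change among those in at least 20% of cells moving the same way in both batches, and the 5 genes most like Pmaip1 over cells. Gene symbols and positions came from GENCODE on GRCm38, promoter sequences from RefSeq.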

Additional observations from a re-analysis of the deposited data

How the results depend on the processing

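Pmaip1 kept a positive log2 fold change under each of 17 alternative settings, between 8.60 and 15.99, and of the 14 settings with an adjusted p it passed the threshold under DESeq2 alone (10.35, adjusted p = 1.94e-25). With the batch left out as a term (no replicate block) it was 10.38, and edgeR called 0 genes, beside 1155 higher and 681 lower genes below an unadjusted p of 0.05. The within-batch values, each without the other batch, were 8.60 and 11.36, and with 1 sum left out and no batch term they ran from 9.54 to 11.70. edgeR called 0 genes higher and 0 lower under each alternative with a test, and DESeq2 called 927 higher and 534 lower, among them 1 of the 10 genes, higher. In cells thinned to 500000 counts, without the 25 shallower cells, 3 of the 10 genes were higher in both batches. Bbc3 did not pass the filter on low counts in that setting and was not tested. Apaf1 turned to -0.35 there. Leaving out 1 sum or 1 batch gave log2 fold changes from -1.94 to 1.56 for Bcl2 (1.31 without naive batch 2), -0.11 to 1.23 for Bcl2l1, -0.87 to 0.29 for Mcl1 (0.11 without inflamed batch 2) and -0.16 to 1.13 for Mdm2 (-0.09 without naive batch 2), where a left-out sum also meant a fit without the batch term. Within each batch Bcl2l1 and Mdm2 stayed above 0. The cause was not tested. Setting values of 1 to 4 reads in a cell to 0, an alternative chosen after seeing the data, left 4 genes higher in both batches and gave the 15.99, a fitted value that is no bound, since both naive sums of Pmaip1 are then at 0. The Pmaip1 share of cells was 45.7% in thinned inflamed cells of batch 2, and at 5 reads 33.8% and 17.1% in inflamed cells and 0% and 0% in naive cells. Of all 40 shares, 35 moved beyond their interval at 5 reads and 6 in thinned cells. Naive counts of 2 and 7 limit how precisely the size of the Pmaip1 and Bbc3 ratios can be given.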

Other observations

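The 14 cells left out by the filter, 7 inflamed and 7 naive, held 149289 and 195424 counts in all. Pmaip1 had 2 counts in 2 of the 7 left-out inflamed cells and 0 in the left-out naive cells. Cdkn1a had 25 counts in the left-out inflamed cells and 13 in the left-out naive ones, and Trp53 had 8 and 26. These shallow cells entered no comparison, and their counts are too few to give levels.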
